A study of Mus musculus with 2 samples.

Results

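The cells described here were 121 immune cells among 354 single cells recovered from regenerating mouse mammary transplants. A cell was taken as immune when the UMIs (unique molecular identifiers, each standing for 1 captured RNA molecule) of Tyrobp, Fcer1g, Laptm5 and Coro1a summed to 5 or more per 10000 UMIs of that cell. Tyrobp and Fcer1g encode adaptors that carry the activating ITAM signal of immune receptors, Laptm5 encodes a lysosomal protein of blood cells and Coro1a an actin-binding protein of leukocytes. The rule held for 80 of 268 cells of the Ctrl library (29.9%, 95% interval 24.4 to 35.7%) and for 41 of 86 cells of the Fgfr2 KO library (47.7%, 36.8 to 58.7%). With the rule and at least 1 UMI of Ptprc, the pan-leukocyte gene, the shares were 24.3% in Ctrl (19.2 to 29.8%) and 25.6% in Fgfr2 KO (16.8 to 36.1%). The higher share in Fgfr2 KO thus rests on cells without a Ptprc UMI. Immune cells of Fgfr2 KO were shallower, however, with a median of 5765 against 9961.5 UMIs. When each cell was cut to 3224 UMIs, the share of Ctrl immune cells with a Ptprc UMI fell from 81.2% to 42.5%. This filter therefore cannot tell whether the shares of immune cells differed. Intervals given here are exact, and for a share of 0 the limit given is 3 counts of the total, and both cover counting error only. These 4 genes chose the cells, so their levels are described and not used as a result. The highest values outside the rule were 4.94 and 4.78 per 10000, and the lowest inside were 5.57, 8.99, 9.13 and 12.2.

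The study asked how basal cells with or without Fgfr2, a receptor for fibroblast growth factors, affect wild-type luminal cells while a mammary gland regrows. Basal cells from Fgfr2+/+ donors (Ctrl) or from Fgfr2 fl/fl donors whose floxed gene had been deleted by Cre (Fgfr2 KO) were mixed with Fgfr2+/+ luminal cells and placed in cleared fat pads of female nude mice aged 3 weeks. In both groups the basal cells had met an adenovirus carrying Cre and GFP, and all donor cells carried the mTmG reporter, which gives Tdtomato before and GFP after recombination. Grafts were dissected after 5 days, sorted by flow cytometry and profiled on the 10x Genomics droplet platform, with 1 library per group. With 1 library per group no test between groups was possible, and the genotype of the graft, the animals and the handling of the library cannot be told apart.

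As background, a wounded or newly transplanted fat pad recruits monocytes from blood, which become macrophages that clear debris and lipid, present antigen through MHC class II and release chemokines. Macrophages of the mammary stroma are known to be needed for duct growth. Nude mice lack a working thymus and so have few mature T cells, while macrophages, natural killer (NK) cells, B cells and dendritic cells are formed. Dendritic cells that leave a tissue for the lymph node switch on Ccr7, the receptor for lymph node chemokines.

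The Ctrl library held 5458515 UMIs and the Fgfr2 KO library 1253032, and immune cells gave 1005458 of the former (18.4%) and 301613 of the latter (24.1%). Immune cells of Ctrl had 4086 to 52633 UMIs per cell with a median of 9961.5, and those of Fgfr2 KO had 1367 to 31490 with a median of 5765. No barcode occurred in both libraries. More than 25% of UMIs were mitochondrial in 0 of 80 Ctrl immune cells, which allows up to 3.75%, and in 5 of 41 Fgfr2 KO immune cells (12.2%, 4.08 to 26.2%).

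The submitters labelled the cells as epithelial, so the label was checked against immune markers outside the rule. Ptprc, the gene of the pan-leukocyte protein CD45, had a UMI in 65 of 80 immune cells of Ctrl (81.2%) and in 22 of 41 of Fgfr2 KO (53.7%). Among the other cells it was found in 8 of 188 in Ctrl (4.26%) and in 1 of 45 in Fgfr2 KO (2.22%). Since the libraries differed in depth, each cell was also thinned to 3224 UMIs, which left out 12 immune cells of Fgfr2 KO as too shallow. After thinning, 42.5% of Ctrl and 20.7% of Fgfr2 KO immune cells had a Ptprc UMI, against 0.532% and 0 of the other cells. Lyz2, the lysozyme of macrophages, reached 14957 and 6777 UMIs per 1000000 (CPM) in the immune cells of Ctrl and Fgfr2 KO, against 265 and 82.0 CPM in the other cells. Its presence alone did not mark an immune cell, because 96.8% of the other Ctrl cells and 64.4% of the other Fgfr2 KO cells held at least 1 Lyz2 UMI.

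The genes that stood highest in immune over other cells were largely those of myeloid cells. In Ctrl these were led by Ly86, which had 138 UMIs in immune cells and 0 in the others, followed by the leukocyte surface genes Cd52 and Cd53. In Fgfr2 KO the first were C1qa, a subunit of complement C1q, the macrophage gene Ms4a7 and again Cd52. C1qa had 2225 CPM in the immune cells of Fgfr2 KO against 5.26 CPM in the other cells of that library. Because the cells were chosen by linked genes, these levels describe the cells and carry no test.

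Reporter transcripts were rare in the immune cells. GFP had 5 UMIs in 3 of 80 immune cells of Ctrl (4.97 CPM, 1.61 to 11.6) and 5 UMIs in 3 of 41 of Fgfr2 KO (16.6 CPM, 5.38 to 38.7), against 133 and 843 CPM in the other cells. Tdtomato had 21 UMIs in 17 Ctrl immune cells (20.9 CPM, 12.9 to 31.9) and 3 UMIs in 3 Fgfr2 KO immune cells (9.95 CPM, 2.05 to 29.1), against 36.6 CPM (31.2 to 42.7) and 34.7 CPM (23.9 to 48.7) in the other cells. GFP was thus lower in immune than in other cells of each library. Tdtomato CPM was lower too, though its intervals overlapped in both. A Tdtomato UMI was seen in 21.2% (12.9 to 31.8%) of Ctrl immune cells against 55.3% (47.9 to 62.6%) of the others. In Fgfr2 KO these shares were 7.32% (1.54 to 19.9%) and 48.9% (33.7 to 64.2%). The shares were not thinned to equal depth. Fgfr2 itself had 3 UMIs in the immune cells of Ctrl (2.98 CPM, 0.615 to 8.72) and 0 in those of Fgfr2 KO (up to 12.2 CPM), with overlapping intervals. In the other cells it was at 35.5 CPM (30.2 to 41.5) in Ctrl and 57.8 CPM (43.5 to 75.2) in Fgfr2 KO, and so not lower in the latter. Whether counts of the whole gene show the deletion was not tested. Apart from these values, the host origin of the cells was not tested.

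Next, each immune cell was scored for 18 myeloid and 25 lymphoid genes. Of the Ctrl immune cells, 78 of 80 (97.5%, 91.3 to 99.7%) had most of these UMIs in myeloid genes, and 2 (2.5%, 0.304 to 8.74%) in lymphoid genes. In Fgfr2 KO 34 of 41 cells leaned to the myeloid side (82.9%, 67.9 to 92.8%), 4 to the lymphoid side (9.76%, 2.72 to 23.1%), and 3 had too few UMIs of either score to be placed. The intervals of the lymphoid shares overlapped. The lowest lymphoid-leaning cell held 24.3 lymphoid UMIs per 10000 and the highest of the others 6.81.

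**Figure D1:**
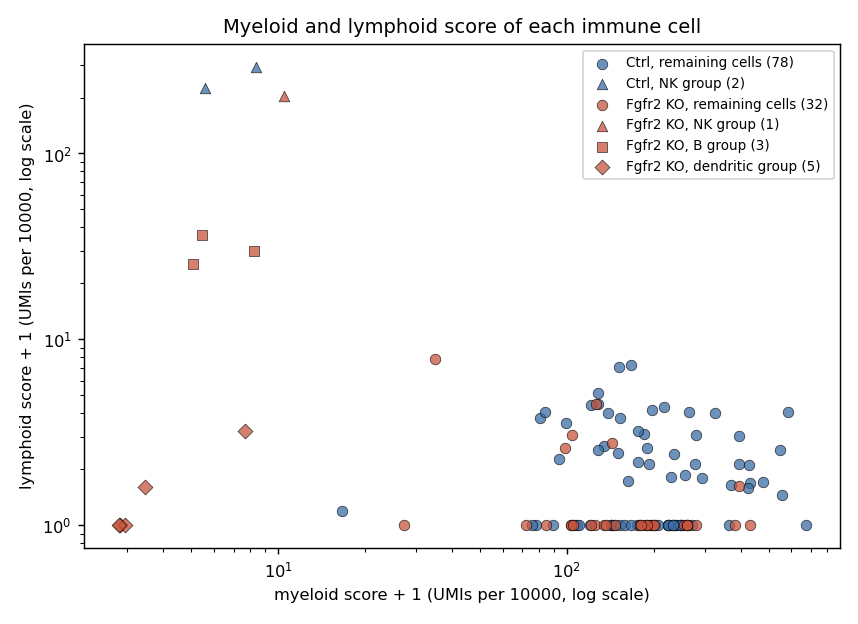
Each point is 1 immune cell, with its myeloid score on the x axis and its lymphoid score on the y axis, both as UMIs per 10000 plus 1 on log scales. The 2 Ctrl and 1 Fgfr2 KO cells high in the NK list lie at the top left, the 3 B list cells of Fgfr2 KO below them, the 5 dendritic list cells of Fgfr2 KO at the lower left, and the remaining 78 and 32 cells at the right.

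The lymphoid-leaning cells fell into NK-like and B-like cells. A cell was called high for a marker list at 10 UMIs of that list per 10000, a limit set after the data had been seen. The NK list was high in 2 Ctrl cells and 1 Fgfr2 KO cell. The first Ctrl cell, with 4086 UMIs, held 71 UMIs of Gzma and 10 of Gzmb, the granzymes of cytotoxic granules, 25 of the granule gene Nkg7, 178 of the chemokine gene Ccl5 and 1 of Ncr1, which encodes the NK receptor NKp46. The second, with 4361 UMIs, held 7 of Ncr1, 45 of the chemokine gene Xcl1, 12 of Nkg7 and 5 of Gzma. The Fgfr2 KO cell, with 5277 UMIs, held 7 of Ncr1, 48 of Gzma, 15 of Nkg7 and 1 of Eomes, a transcription factor of NK cells. All 3 cells carried Ncr1, granzyme and Nkg7 UMIs, in differing proportions. These genes are on the list that chose the cells, so their levels are a description and not a result.

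T cell genes were nearly absent. Cd3e and Cd3g, subunits of the T cell receptor complex, had 0 UMIs in all 354 cells, and Cd3d had 1 UMI in 1 of 80 Ctrl immune cells. For Cd3e, 0 of 80 Ctrl and 0 of 41 Fgfr2 KO immune cells allow shares of up to 3.75% and 7.32% of cells with a UMI. Of the 12 genes of the T cell list, 9 were in the table, and they summed to 11 UMIs in Ctrl and 15 in Fgfr2 KO. The Fgfr2 KO cell that was high for this list was the NK-like cell, whose 8 UMIs were all of Cd28, a costimulatory receptor.

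The B list was high in none of the 80 immune cells of Ctrl, which allows up to 3.75%, and in 3 of the 41 of Fgfr2 KO (7.32%, 1.54 to 19.9%). The 3 cells were shallow, with 2774, 2468 and 2256 UMIs. They held 2, 4 and 6 UMIs of Cd79a, which encodes a signalling chain of the B cell receptor, and 2, 1 and 0 of its partner Cd79b. Pax5, the transcription factor that sets B cell identity, had 1 UMI in 2 of them, and Ms4a1, the gene of CD20, had 2 UMIs in 1. Cd74, the invariant chain of MHC class II, had 63, 58 and 74 UMIs in these cells and H2-Aa had 19, 32 and 35. Only 6 of the 10 genes of the B list were in the table, so the naming of these cells rests on few UMIs. Cd79a, Cd79b, Pax5 and Ms4a1 are on the list that chose the cells, so their UMIs are a description.

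The dendritic list was high in 5 of 41 Fgfr2 KO immune cells (12.2%, 4.08 to 26.2%) and in 0 of 80 Ctrl cells, with the same upper limit of 3.75%. These cells lay near the threshold of the immune rule, with 5.57, 9.13, 12.6, 14.7 and 8.99 rule UMIs per 10000, and at a threshold of 10 only 2 of them would be kept. Ccr7 had 27, 37, 34, 49 and 13 UMIs in these 5 cells, which together held 160 of the 168 Ccr7 UMIs of Fgfr2 KO immune cells. Ctrl immune cells had 0, so that the level in Fgfr2 KO was at least 187-fold higher when Ctrl is set to a floor of 3 counts over the group. Fscn1, an actin-bundling protein of migrating dendritic cells, had 9, 15, 21, 93 and 14 UMIs in the same cells, and Batf3, a transcription factor of dendritic cells, had 4, 1, 2, 6 and 1. Flt3, Xcr1, Clec9a and Siglech, which mark resident and plasmacytoid dendritic cells, had 0 UMIs in all 5, and Itgax, the gene of CD11c, had 2 UMIs in 1 of them. The list is therefore carried by Ccr7, Fscn1 and Batf3, and not by the markers of resident dendritic cells. These 3 genes are on the list that chose the cells, so their concentration in the 5 cells is a description and not a result.

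These 5 cells also shared genes that the list did not hold. Ccl5 had 105, 185, 389, 19 and 2 UMIs, a level of 13421 CPM (12446 to 14454) over the group. Tbc1d4, which encodes a regulator of vesicle traffic, had 49, 8, 39, 36 and 14 UMIs, and H2-M2, a nonclassical MHC class I gene, had 3, 21, 21, 20 and 6. Ccl22 and Ccl17, which encode ligands of the chemokine receptor CCR4, had 87 and 78 UMIs in the last cell and at most 9 and 2 in the others, so that 1 cell held most of both. C1qa and Csf1r, which are macrophage genes, had 0 UMIs in all 5 cells, and Lyz2 had at most 1 UMI per cell. Ptprc had a UMI in 3 of the 5.

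Mast cell and basophil genes gave 2 UMIs in Ctrl and 0 in Fgfr2 KO, both under the floor of 3 counts. The neutrophil list was high in 0 of 80 Ctrl and 0 of 41 Fgfr2 KO immune cells. S100a8, which neutrophils carry in large amounts, had 40 UMIs in 25 cells of Ctrl and 1 UMI in Fgfr2 KO, with at most 15% of the Ctrl UMIs in 1 cell. S100a9, Ly6g and Cxcr2 had 0 UMIs in the immune cells of both libraries. Among the genes of innate lymphoid cells and gamma delta T cells, Il7r, the interleukin 7 receptor chain, was seen in 28 of the 80 immune cells of Ctrl (35%) and 2 of the 41 of Fgfr2 KO (4.88%). After thinning the shares were 17.5% (9.91 to 27.6%) and 6.9% (0.846 to 22.8%), with overlapping intervals. Those 28 Ctrl cells were all myeloid-leaning.

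Apart from the NK-like, B-like and dendritic list cells, 78 Ctrl and 32 Fgfr2 KO cells remained, all of them myeloid-leaning. Macrophage genes were present in most of these cells. Cd68, a glycoprotein of macrophage lysosomes, had a UMI in 75 of 78 and 29 of 32 cells, Adgre1, the gene of F4/80, in 62 and 20, and Csf1r, the receptor for the macrophage growth factor CSF1, in 61 and 19. The levels of these 3 genes in Fgfr2 KO over Ctrl differed by log2 values of -0.18 (-0.43 to 0.06), 0.41 (0.03 to 0.78) and 0.42 (-0.02 to 0.84), in that order. Monocyte genes were found in fewer cells, with Ly6c2 in 21 of 78 and 8 of 32 and the chemokine receptor gene Ccr2 in 12 and 7.

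To ask which programmes differed between the libraries, UMIs of each gene were summed over the immune cells of each library and divided by all their UMIs. Of 5352 genes with at least 20 UMIs over both libraries, 428 (8.0%) were at least 2-fold higher in Fgfr2 KO and 548 (10.2%) were at least 2-fold lower, with a median log2 ratio of -0.03. For the 78 and 32 remaining cells, 5115 genes had enough UMIs, of which 374 (7.31%) were at least 2-fold higher and 550 (10.8%) at least 2-fold lower, with a median of -0.01. These shares are the background for the counts below. Summed keratin and other epithelial transcripts in immune cells were 834 CPM (778 to 892) in Ctrl and 342 CPM (279 to 414) in Fgfr2 KO, and their part in the differences was not tested. With at least 1 Ptprc UMI in place of the rule, their log2 ratio turned to 0.548. Fibroblast genes in immune cells gave 109 CPM (Ctrl) and 166 CPM (Fgfr2 KO) together, but 2 of the 41 Fgfr2 KO cells held 70.0% of the latter. Without these 2 cells the Fgfr2 KO level was 53.6 CPM, below that of Ctrl, at a log2 ratio of -1.03 (-1.91 to -0.24).

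Some genes of wound-type and alternatively activated macrophages were lower in Fgfr2 KO, and Spp1 made up much of their sum in Ctrl. The list summed to 4599 CPM (4467 to 4733) in Ctrl immune cells and 1896 CPM (1744 to 2058) in those of Fgfr2 KO, a log2 ratio of -1.28 (-1.41 to -1.15). Of 9 members with enough UMIs, 4 were at least 2-fold lower and 1 was higher, with a list median of -0.93 against -0.03 over all genes. Over the 78 and 32 remaining cells the sum differed by -0.96 (-1.09 to -0.83), with 4 lower and 2 higher. Spp1 made up 54.1% of the list's UMIs in these Ctrl cells and 14.5% in those of Fgfr2 KO, and without it the sum was nearly level, at 2128 and 2041 CPM and -0.06 (-0.21 to 0.08). Over all immune cells the ratio without Spp1 was -0.38 (-0.53 to -0.24). The median per cell was 24.4 list UMIs per 10000 in these Ctrl cells (range 4.17 to 331) and 11.6 in those of Fgfr2 KO (0 to 122), so the ranges overlapped widely. The list reached 50 per 10000 in 13 of the 78 (16.7%, 9.18 to 26.8%) and 6 of the 32 (18.8%, 7.21 to 36.4%), with overlapping intervals.

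The lower members of this list act on matrix and wound repair. Spp1, the secreted matrix protein osteopontin, had 2500 UMIs in the 78 Ctrl cells (2507 CPM) and 82 in the 32 Fgfr2 KO cells (346 CPM), a log2 ratio of -2.86 (-3.19 to -2.54). Its median was 4.64 per 10000 in Ctrl, with a highest cell at 311, and 0.736 in Fgfr2 KO, with a highest cell at 21.6. Fn1, the matrix protein fibronectin, had 640 UMIs in 57 Ctrl cells and 4 UMIs in 3 Fgfr2 KO cells, a log2 ratio of -5.25 (-7.13 to -3.88). Arg1, the arginase that marks alternative activation, had 221 UMIs in 31 cells against 5 UMIs in 5 cells, at -3.39 (-5.03 to -2.15). Thbs1, the matrix protein thrombospondin 1, had 152 UMIs against 9, at -2.0 (-3.16 to -1.04). Members of the list that are receptors did not share this pattern: Mrc1, the mannose receptor, differed by 0.50 (-0.05 to 1.03), and the lectin gene Clec10a was higher, with 14 UMIs in 7 Ctrl cells and 29 UMIs in 11 Fgfr2 KO cells, at 3.13 (2.16 to 4.16). Hmox1, the haem-degrading enzyme, had a log2 ratio of 1.0 (0.81 to 1.19), but 66.5% of its Ctrl UMIs came from 1 cell.

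Spp1 and Fn1 were not particular to immune cells. Spp1 had 390 CPM in the other cells of Ctrl and 374 CPM in those of Fgfr2 KO, and Fn1 had 584 and 246 CPM there. When cells were thinned to 3224 UMIs, Spp1 was seen in 62.5% of Ctrl and 41.4% of Fgfr2 KO immune cells against 30.3% and 20.9% of the other cells. Fn1 was seen in 51.2% and 6.9% of immune cells against 43.1% and 20.9% of the other cells, so that in Fgfr2 KO its share in immune cells lay below that in the other cells. For Arg1 the thinned shares were 26.2% and 3.45% of immune cells and 3.72% and 4.65% of the other cells. The Fgfr2 KO value for Arg1 is thus at the background of its library.

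Mmp12, the macrophage elastase, lay outside the lists and stood farthest from no change among the lower genes. It had 1969 UMIs in 41 of 80 Ctrl immune cells (1958 CPM) and 10 UMIs in 2 of 41 Fgfr2 KO immune cells (33.2 CPM), a log2 ratio of -5.88 (-6.95 to -5.0). In Ctrl 1 cell gave 19.2% of the UMIs, and the highest cell reached 199 per 10000, while 1 cell held 90% of the UMIs of Fgfr2 KO. Gpnmb, a lysosomal membrane glycoprotein of lipid-laden macrophages, followed with 812 UMIs in 53 Ctrl cells and 12 UMIs in 6 Fgfr2 KO cells, at -4.34 (-5.30 to -3.53). Npy, the gene of neuropeptide Y, had 92 UMIs in 14 Ctrl cells and none in Fgfr2 KO, a level at least 9.2-fold lower. F7, the gene of coagulation factor VII, had 72 UMIs in 24 Ctrl cells and none in Fgfr2 KO, at least 7.2-fold lower.

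Of the other genes that lay farthest from no change in this direction, several were also expressed by the remaining cells of the libraries. Sdc1, the cell surface proteoglycan syndecan 1, had 123 UMIs in 35 Ctrl immune cells and 2 UMIs in Fgfr2 KO immune cells, but 216 and 166 CPM in the other cells. With at least 1 Ptprc UMI in place of the rule, its log2 ratio turned to 0.81. Edn1, which encodes the vasoconstrictor peptide endothelin 1, had 56 and 0 UMIs in immune cells and 69.2 and 13.7 CPM in the other cells. Among the 78 and 32 remaining immune cells the same rule also named Krt17, a keratin, with 112 UMIs against 1, and Cd200, a ligand that restrains myeloid cells, with 74 against 0. Krt17 had 773 and 564 CPM in the other cells, and 48.2% of its immune UMIs in Ctrl came from 1 cell. The part of epithelial RNA in these 4 genes was not tested.

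The promoters of Spp1 and Mmp12 are shown as examples of macrophage genes that were lower in Fgfr2 KO. The sequences are from RefSeq (GRCm38.p6), 250 bases before each start, and capitals mark the core GAGGAA of sites for PU.1, the master factor of myeloid cells, or its complement TTCCTC. That core occurred on either strand in 7639 of 32851 promoters (23.3%), in 3 of 5 of the lower genes examined (Spp1, Mmp12 and Trem2) and in 1 of 3 of the rule genes examined (Laptm5). The match is a description of letters and not of a site in use. The Spp1 sequence lies at chr5:104434861-104435110 on the plus strand and the Mmp12 sequence at chr9:7344147-7344396 on the plus strand.
Spp1: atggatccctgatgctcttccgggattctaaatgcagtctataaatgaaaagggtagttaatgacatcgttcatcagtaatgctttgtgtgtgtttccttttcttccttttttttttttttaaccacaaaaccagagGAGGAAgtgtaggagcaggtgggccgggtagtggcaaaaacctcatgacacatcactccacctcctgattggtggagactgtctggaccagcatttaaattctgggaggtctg
Mmp12: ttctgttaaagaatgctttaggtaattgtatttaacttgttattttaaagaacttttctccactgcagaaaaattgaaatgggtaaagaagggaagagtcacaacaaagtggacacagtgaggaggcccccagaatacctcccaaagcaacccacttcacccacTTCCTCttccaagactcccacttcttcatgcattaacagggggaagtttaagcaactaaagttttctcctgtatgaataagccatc

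Lipid handling was lower in part. Of 9 list members with enough UMIs, 5 were at least 2-fold lower in Fgfr2 KO immune cells and 1 was higher, with a list median of -1.31. The sum differed less, by -0.67 (-0.72 to -0.63), because Apoe, the main lipid carrier that macrophages secrete, made up most of it in Ctrl and differed by only -0.13 (-0.18 to -0.07). Without Apoe the sum differed by -1.65 (-1.74 to -1.57).

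Over the 78 and 32 remaining cells the lower members were Lpl, Cd9, Fabp4, Lgals3 and Fabp5. Lpl, the lipoprotein lipase, had 1206 UMIs in 59 Ctrl cells and 51 in 10 Fgfr2 KO cells, a log2 ratio of -2.49 (-2.92 to -2.08). Cd9, a tetraspanin, differed by -2.17 (-2.76 to -1.63) and Lgals3, the secreted lectin galectin 3, by -1.54 (-1.67 to -1.42). The fatty acid binding protein genes Fabp4 and Fabp5 differed by -1.79 (-3.14 to -0.70) and -1.07 (-1.28 to -0.86), but 64.7% of the Fabp4 UMIs of Ctrl came from 1 cell. The median of Lgals3 was 37.4 per 10000 in Ctrl cells and 14.8 in Fgfr2 KO cells, and that of Fabp5 was 8.85 and 2.23. Abcg1, an exporter of cholesterol, went the other way at 0.94 (0.19 to 1.64), and Abca1, its partner exporter, differed by 0.11 (-0.49 to 0.67).

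Lysosomal and phagocytic genes followed a similar split. Their sum was 33935 CPM (33576 to 34297) in Ctrl immune cells and 20324 CPM (19818 to 20839) in Fgfr2 KO, or -0.74 on the log2 scale (-0.78 to -0.70). Only 3 of 14 members were at least 2-fold lower and none was 2-fold higher, with a list median of -0.51. Over the 78 and 32 remaining cells the sum differed by -0.46 (-0.50 to -0.42), a smaller gap than with the 9 NK-like, B-like and dendritic list cells of Fgfr2 KO counted in. The 3 lower members were Gpnmb, Ctsl, the protease cathepsin L, at -1.30 (-1.42 to -1.17), and Cd63, a tetraspanin of late endosomes, at -1.05 (-1.34 to -0.78). Ctsl had a median of 32.2 per 10000 in Ctrl cells and 10.0 in Fgfr2 KO cells. Ctsz, Lamp1, Lipa and Grn, which encode a cathepsin, a lysosomal membrane protein, the lysosomal acid lipase and progranulin, had log2 ratios from 0.04 to 0.21, and Lgmn, the protease legumain, was at 0.34 (0.17 to 0.50).

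**Figure D2:**
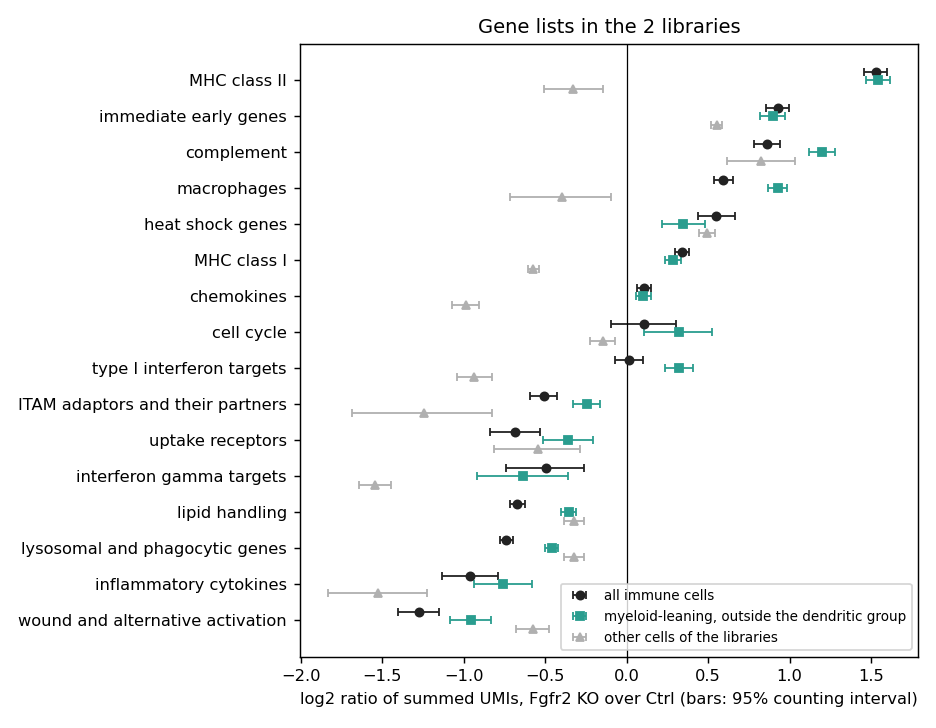
Each marker gives the log2 ratio of summed UMIs, Fgfr2 KO over Ctrl, of the gene list named on the y axis, with bars for the 95% counting interval. Circles are all immune cells (80 and 41), squares the 78 and 32 myeloid-leaning cells outside the dendritic group, and triangles the other cells (188 and 45). Among the lists drawn, MHC class II lies farthest to the right in all immune cells, at 1.53, and the wound list, more than 50% of it Spp1 in Ctrl, farthest to the left, at -1.28.

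Receptors that take up particles and lipid, and the receptors that pair with the ITAM adaptors, were compared next. Trem2, a lipid-sensing receptor that signals through Tyrobp, had 739 UMIs in 75 of the 78 Ctrl cells and 84 UMIs in 18 of the 32 Fgfr2 KO cells, a log2 ratio of -1.06 (-1.41 to -0.74). Its median was 6.95 per 10000 in Ctrl and 0.835 in Fgfr2 KO. Cd36, a scavenger receptor for fatty acids and oxidised lipoprotein, had 642 UMIs in 54 cells against 37 in 12, at -2.04 (-2.56 to -1.56). After thinning, Trem2 was seen in 81.2% of Ctrl and 41.4% of Fgfr2 KO immune cells and Cd36 in 56.2% and 20.7%, against at most 3.19% of the other cells in either library. The interval of the Cd36 share in Fgfr2 KO immune cells after thinning (7.99% to 39.7%) overlapped that of the other cells of its library (0.0589% to 12.3%).

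Among the other measured receptors of these lists, only Mertk passed 2-fold over the 78 and 32 remaining cells. Of 10 measured ITAM list genes, not counting the rule genes Tyrobp and Fcer1g, 3 were at least 2-fold lower in all immune cells, and over the 78 and 32 remaining cells Trem2 was the only one of those measured. Fcgr1, the high-affinity receptor for IgG, had a log2 ratio of 0.00 (-0.51 to 0.48), Fcgr3, a low-affinity IgG receptor, -0.53 (-0.90 to -0.19), and the kinase gene Syk 0.21 (-0.48 to 0.84). Msr1, a scavenger receptor, was at -0.39 (-0.87 to 0.07) and the efferocytosis receptor gene Axl at 0.46 (-0.42 to 1.28). Mertk, a receptor for dying cells, was the 1 uptake receptor with enough UMIs that was at least 2-fold higher, with 16 UMIs in 15 Ctrl cells and 11 UMIs in 7 Fgfr2 KO cells, at 1.53 (0.28 to 2.73). Itgam, the integrin chain CD11b, is a gene of the myeloid score and differed more. It had UMIs in 61 of 80 Ctrl and 9 of 41 Fgfr2 KO immune cells, at -2.10 (-3.09 to -1.26), and after thinning in 47.5% and 10.3% of them.

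Complement C1q genes were higher in Fgfr2 KO. The 3 genes lie side by side on the minus strand of chromosome 4 (C1qb at chr4:136880129-136886187, C1qc at chr4:136889804-136893065 and C1qa at chr4:136895917-136898803, GRCm38) and encode the chains of the recognition molecule of the classical pathway. Over the 78 and 32 remaining cells C1qa stood at 1006 CPM (Ctrl) and 2827 CPM (Fgfr2 KO), with a log2 ratio of 1.49 (1.35 to 1.63). C1qb differed by 1.30 (1.14 to 1.46) and C1qc by 1.33 (1.17 to 1.5), so the ratios of the 3 chains lay close together. Of the 9 complement genes measured these 3 were at least 2-fold higher and none was lower, against 1 and 0 in all immune cells. Cfp, the gene of properdin, and Cfb, the gene of factor B, differed by 0.80 (0.50 to 1.09) and 0.63 (0.19 to 1.05), and the receptor genes C3ar1 and C5ar1 by 0.28 (-0.14 to 0.68) and -0.29 (-0.99 to 0.34).

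The higher C1q level was seen in the median cell but rested in part on single cells. The median of C1qa was 3.36 per 10000 in Ctrl cells and 18.7 in Fgfr2 KO cells, that of C1qb 2.78 and 10.3, and that of C1qc 4.13 and 14.4. The complement list reached 50 per 10000 in 25 of the 78 cells from Ctrl (32.1%, 21.9 to 43.6%) and in 20 of the 32 from Fgfr2 KO (62.5%, 43.7 to 78.9%). A single Fgfr2 KO cell gave 35.5% of the list's UMIs in that library, and when the cell with the most UMIs was left out of each library the list's log2 ratio over all immune cells was 0.46 in place of 0.86. The thinned shares of immune cells with a C1qa UMI were 58.8% in Ctrl and 55.2% in Fgfr2 KO, those for C1qb 53.8% and 69.0%, and those for C1qc 58.8% and 69.0%, with overlapping intervals for each gene. In the other cells the complement list was also higher in Fgfr2 KO, by 0.83 (0.61 to 1.03).

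Further macrophage genes were higher with C1q. Of 12 measured macrophage list genes, 6 were at least 2-fold higher and 1 was lower over the 78 and 32 remaining cells, with a list median of 0.86 against -0.01 over all genes. The 3 C1q genes are also members of this list. Pf4, the chemokine platelet factor 4, had a log2 ratio of 1.25 (1.12 to 1.38) and Folr2, a folate receptor, 1.23 (0.87 to 1.58). Trem2 was the lower member. The 3 immune markers outside the rule, Ptprc, Lyz2 and the cathepsin gene Ctss, went the other way. They summed to 19809 and 12240 CPM, at -0.69 (-0.75 to -0.64), and were at -0.38 (-0.49 to -0.28) without Lyz2. The sum of the myeloid score was at -0.14 (-0.19 to -0.10), and at 0.71 (0.65 to 0.78) without Lyz2. The macrophage list's median per cell was 71.6 per 10000 in Ctrl and 123 in Fgfr2 KO, while 24.5% of its UMIs in Fgfr2 KO came from 1 cell. In all immune cells, with the NK-like, B-like and dendritic list cells included, only 2 macrophage list members were 2-fold higher, and the list's sum differed by 0.59 (0.53 to 0.65). It differed by less as a mean of per-cell CPM, at 0.33, and without the cell holding most of the list in each library, at 0.35.

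Cd5l, the secreted inhibitor of macrophage apoptosis, was the gene farthest from no change among the higher ones in these cells, with 2 UMIs in 2 Ctrl cells and 44 UMIs in 5 Fgfr2 KO cells, a log2 ratio of 6.53 (4.60 to 9.62). The same 10 genes included Slc40a1, the iron exporter ferroportin, with 13 UMIs against 33 and a log2 ratio of 3.42 (2.45 to 4.47). They also included Lars2, a mitochondrial leucyl-tRNA synthetase (3.88, 2.71 to 5.23), the heat shock genes Hspa1a and Hspa1b, and Rogdi. The pseudogene Rpl36-ps3, also among them, can share reads with its parent gene, so its value is uncertain. Lars2, Slc40a1, Hspa1a, Hspa1b and Rpl36-ps3 were also at least 2-fold higher in the other cells of Fgfr2 KO, at log2 ratios of 1.93, 1.38, 2.02, 1.95 and 2.22.

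**Figure D3:**
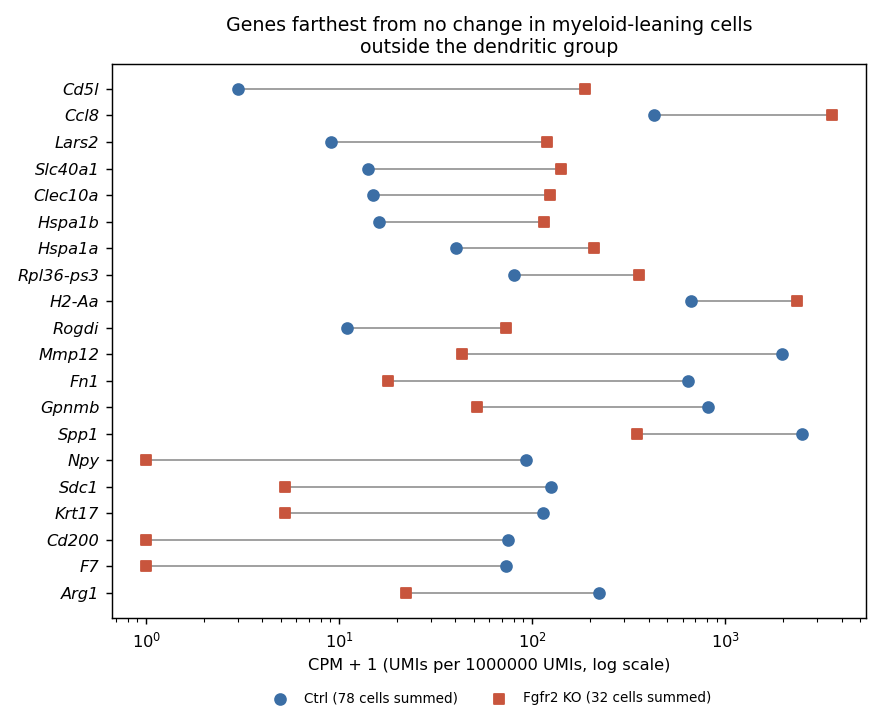
Each row is a gene chosen by the interval of its ratio, 10 per direction, with CPM plus 1 on a log scale on the x axis, circles for Ctrl (78 cells summed) and squares for Fgfr2 KO (32 cells summed). Ccl8 stood at 426 CPM (Ctrl) and 3574 CPM (Fgfr2 KO), and Mmp12 at 1975 and 42.2 CPM.

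MHC class II genes, which present antigen to helper T cells, were higher in Fgfr2 KO. They summed to 3390 CPM (3278 to 3506) in Ctrl immune cells and 9781 CPM (9431 to 10140) in those of Fgfr2 KO, a log2 ratio of 1.53 (1.46 to 1.60). Of 6 members with enough UMIs 4 were at least 2-fold higher, and none was lower, with a list median of 1.31. H2-Aa and H2-Ab1, which encode the chains of the I-A molecule, had log2 ratios of 1.95 (1.80 to 2.1) and 1.37 (1.17 to 1.56), H2-Eb1, a chain of I-E, 1.25 (1.02 to 1.49) and the invariant chain gene Cd74 1.57 (1.47 to 1.68). H2-DMa and H2-DMb1, which help load peptide, differed by 0.26 (-0.17 to 0.68) and 0.38 (-0.21 to 0.94). Ciita, the class II transactivator, had 1 UMI in Ctrl and 0 in Fgfr2 KO, too few for a ratio.

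The higher class II level did not rest on the B-like cells. These had the highest level of these groups, at 48813 CPM (43940 to 54079), and the dendritic list cells had 4314 CPM (3769 to 4916). Without both and the NK-like cells, the list was at 3419 CPM (Ctrl) and 9958 CPM (Fgfr2 KO), which gives 1.54 on the log2 scale (1.47 to 1.62). It rested, however, on few of the remaining cells. The median was 3.70 per 10000 in the 78 Ctrl cells and 3.45 in the 32 Fgfr2 KO cells, and 11 of the 78 (14.1%, 7.26 to 23.8%) and 7 of the 32 (21.9%, 9.28 to 40%) held 50 or more per 10000. In Fgfr2 KO the 5 highest cells gave 94.2% of the UMIs and the highest cell 41.1%, against 59.1% and 19.3% in Ctrl. Most cells of both libraries thus had little class II, and a high group was present in both.

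The promoters of H2-Aa and H2-Eb1 are shown because both genes were higher and hold the letters of the class II control region. As background, class II genes share an X box and a Y box at a fixed spacing before their start. Capitals mark GCAAC, the start of the X box in these genes, and ATTGG, the core of the Y box, with 28 bases between them in H2-Aa and 27 in H2-Eb1. This order with up to 30 bases between, on 1 strand, occurred in 389 of 32851 promoters (1.18%), whereas ATTGG alone on either strand occurred in 11120 (33.8%). It was found in 2 of the 4 class II genes with a promoter in the table and not in H2-DMa or H2-DMb1 in this window. Both are RefSeq sequences (GRCm38.p6), H2-Aa at chr17:34287824-34288073 on the minus strand and H2-Eb1 at chr17:34305617-34305866 on the plus strand.
H2-Aa: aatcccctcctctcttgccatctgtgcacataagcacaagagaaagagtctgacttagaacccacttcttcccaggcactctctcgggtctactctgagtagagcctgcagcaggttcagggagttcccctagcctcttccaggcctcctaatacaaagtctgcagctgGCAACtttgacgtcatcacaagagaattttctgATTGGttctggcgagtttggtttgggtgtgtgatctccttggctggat
H2-Eb1: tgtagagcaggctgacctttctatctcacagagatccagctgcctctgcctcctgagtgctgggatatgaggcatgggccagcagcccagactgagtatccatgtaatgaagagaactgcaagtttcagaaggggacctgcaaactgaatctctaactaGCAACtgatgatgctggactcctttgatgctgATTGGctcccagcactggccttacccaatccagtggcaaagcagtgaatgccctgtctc

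MHC class I genes differed little. B2m, the shared light chain, differed by 0.34 (0.26 to 0.41) over the 78 and 32 remaining cells, H2-K1 by 0.44 (0.31 to 0.57) and H2-D1 by 0.20 (0.12 to 0.29), and none of 8 members passed 2-fold in either direction. In the other cells of the libraries both class I and class II summed to lower values in Fgfr2 KO, by -0.58 (-0.61 to -0.54) and -0.33 (-0.51 to -0.15).

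**Figure D4:**
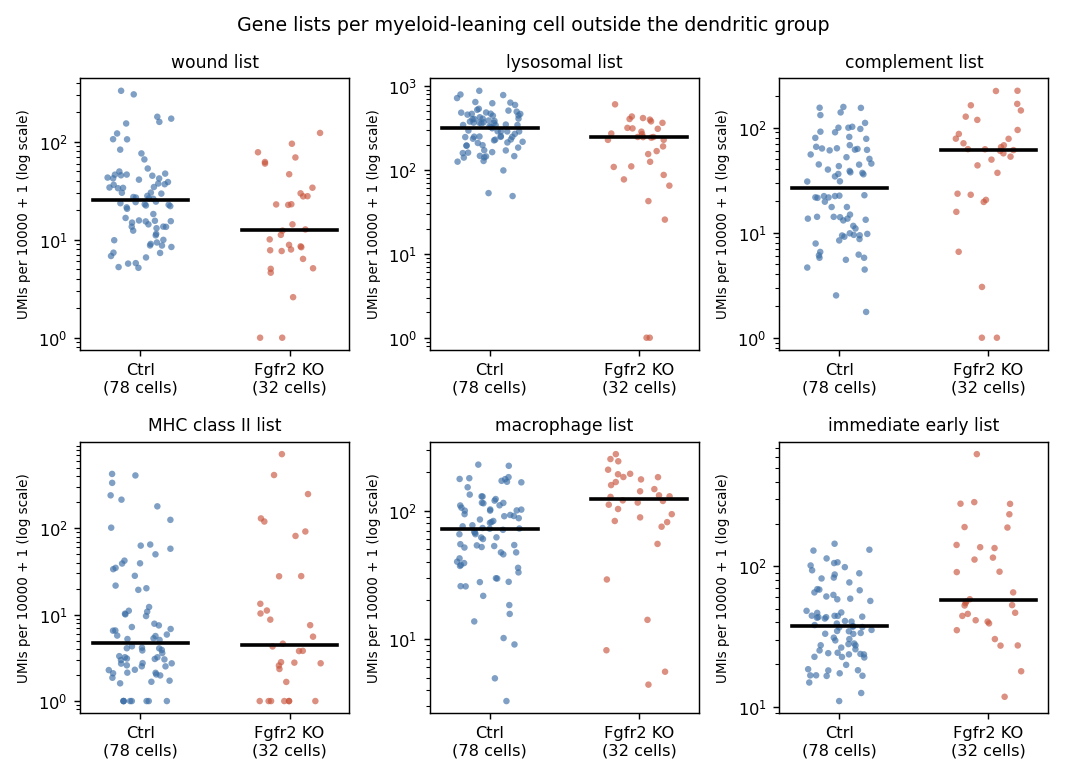
Each point is 1 of the 78 Ctrl or 32 Fgfr2 KO myeloid-leaning cells outside the dendritic group, with UMIs of the list per 10000 plus 1 on a log scale and a bar at the median. The medians of the wound and lysosomal lists were lower in Fgfr2 KO, those of the complement, macrophage and immediate early lists were higher, and those of MHC class II were nearly level at 3.70 and 3.45.

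Chemokine genes differed in both directions, while their sum was nearly level. The list reached 18820 CPM in immune cells of Ctrl and 20261 CPM in those of Fgfr2 KO, a log2 ratio of 0.11 (0.06 to 0.15), with 5 of 18 members at least 2-fold higher and 3 lower and a list median of 0.25. Without Cxcl2, which held 38.9% of the list's Ctrl UMIs, the ratio was 0.45 (0.40 to 0.50). The balance turned over the 78 and 32 remaining cells, with 3 of 17 higher, 5 lower and a median of -0.41. Ccl8, a monocyte attractant on chromosome 11 (chr11:82115185-82116799, GRCm38), had 425 UMIs in 37 of the 78 cells of Ctrl and 846 UMIs in 22 of the 32 of Fgfr2 KO, a log2 ratio of 3.07 (2.90 to 3.24). Its median was 0 in Ctrl and 14.4 per 10000 in Fgfr2 KO, and no cell gave more than 16.5% of its UMIs. After thinning it was seen in 27.5% and 58.6% of immune cells and in 5.85% and 6.98% of the other cells. Ccl2 and Ccl3, also attractants of monocytes, differed by 1.18 (0.95 to 1.42) and 1.18 (0.88 to 1.48) over these cells, and Ccl7 by 0.96 (0.77 to 1.13).

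The lower chemokines included attractants of neutrophils. Cxcl1 differed by -1.04 (-1.22 to -0.87) over the 78 and 32 cells, Cxcl3 by -2.0 (-3.35 to -0.91) and Cxcl2, which was found in all 78 cells of Ctrl and in 27 of the 32 of Fgfr2 KO, by -0.41 (-0.50 to -0.33). Ccl9, a macrophage chemokine, was at -1.07 (-1.31 to -0.84). Ccl5 changed direction with the cells counted: over all immune cells it was at 1.97 (1.82 to 2.12), and without the NK-like, B-like and dendritic list cells at -1.13 (-1.58 to -0.71). A single Ctrl cell held 52.7% of the Ccl5 UMIs of the remaining 78, and without it the levels were nearly equal, at 228 and 215 CPM and a log2 ratio of -0.08 (-0.55 to 0.36). The NK-like, B-like and dendritic list cells held 727 of the 778 Ccl5 UMIs in Fgfr2 KO. Ccl22 and Ccl17 were likewise carried by the dendritic list cells, with 109 and 81 UMIs in Fgfr2 KO immune cells of which 3 and 0 lay in the remaining 32.

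Among chemokine receptors, Cxcr4, the receptor for CXCL12, was higher at 1.66 (1.05 to 2.26) over the 78 and 32 cells and the monocyte receptor gene Ccr2 at 1.27 (0.28 to 2.20). Cx3cr1, the fractalkine receptor, was lower at -1.18 (-2.36 to -0.19), with UMIs in 17 and 4 cells, and Ccr1 at -1.25 (-2.93 to 0.07). In each of these genes the counts were below 100 UMIs per library, and the intervals are correspondingly wide.

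Inflammatory cytokines were lower as a sum, by -0.96 (-1.13 to -0.79) over all immune cells, with 4 of 10 measured members at least 2-fold lower and none higher, and by -0.61 (-0.80 to -0.43) without Il1rn. In the 78 and 32 remaining cells 2 of 10 were at least 2-fold lower. Il1rn, the natural antagonist of the interleukin 1 receptor, was the lowest of this list over the 78 and 32 remaining cells, with 632 UMIs in 56 Ctrl cells and 32 UMIs in 13 Fgfr2 KO cells, at -2.23 (-2.79 to -1.72). Ptgs2, the inducible prostaglandin synthase, was at -1.01 (-1.66 to -0.42), Il1b, the main agonist of that receptor, at -0.88 (-1.31 to -0.47) and Nlrp3, the inflammasome sensor, at -0.83 (-1.60 to -0.13). Tnf differed by -0.31 (-0.72 to 0.07), Il10, an inhibitory cytokine, by 0.65 (0.04 to 1.24) and Osm, which encodes oncostatin M, by 0.73 (0.10 to 1.32). The list thus held genes of opposed function on its lower side.

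Sums of type I and gamma interferon targets differed in immune cells, though the gamma sum varied widely in size. Type I targets differed by 0.01 (-0.07 to 0.10) over all immune cells and by 0.32 (0.23 to 0.41) over the 78 and 32 remaining cells, where Ifit3 and Mx1, both antiviral effectors, were at least 2-fold higher of 13 and none was lower. Of the others Rsad2, the antiviral enzyme viperin, was at 0.73 (0.43 to 1.04) and Isg15, a ubiquitin-like modifier, at 0.10 (-0.18 to 0.37). Interferon gamma targets were at -0.50 (-0.74 to -0.26) over all immune cells, with 5 of 13 lower and 1 higher. The size of this sum depended on how it was taken, at -0.16 as a mean of per-cell CPM, at -0.87 without Irf1, and at -1.79 with at least 1 Ptprc UMI in place of the rule. Gbp2 and Gbp4, which encode guanylate-binding proteins, had 98 and 65 UMIs in the 78 Ctrl cells and 2 UMIs each in the 32 Fgfr2 KO cells, at -3.54 (-6.61 to -1.65) and -2.95 (-6.02 to -1.04). Irf1, an interferon-induced transcription factor, differed by 0.46 (-0.12 to 1.02). Ubd, which encodes a ubiquitin-like protein, was also lower, but 71.8% of its Ctrl UMIs lay in 1 cell. Gbp2 had 542 and 159 CPM in the other cells, and gamma targets as a whole were lower there too, at -1.55 (-1.65 to -1.45). Type I targets were also lower in the other cells, at -0.936 (-1.045 to -0.829).

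Growth factor genes gave few UMIs in the immune cells, with 7 of 12 passing the minimum and 2 of these at least 2-fold lower. Igf1, insulin-like growth factor 1, had 85 UMIs in 28 Ctrl cells and 41 UMIs in 13 Fgfr2 KO cells, at 1.02 (0.45 to 1.58). Areg, the ERBB1 ligand amphiregulin, had 56 UMIs against 4, at -1.73 (-3.66 to -0.30), with 385 and 345 CPM in the other cells. Inhba, which encodes the subunit of activin A, had 30 UMIs in 15 Ctrl cells and none in Fgfr2 KO, at least 2.37-fold lower over the 78 and 32 cells, against 87.6 and 36.8 CPM in the other cells. Tgfb1 differed by -0.52 (-1.08 to 0.00) and Vegfa, the angiogenic factor, by -0.60 (-1.20 to -0.04). Hgf and Fgf2 had at most 6 UMIs in either library.

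Immediate early genes, which many cells induce within minutes of stress or handling, were higher in Fgfr2 KO immune cells, with 6 of 10 at least 2-fold higher and a sum at 0.93 (0.85 to 1.0). Over the 78 and 32 cells Jun was at 1.62 (1.34 to 1.91), Fosb at 1.37 (1.02 to 1.72), Atf3 at 1.35 (1.09 to 1.60) and Egr1 at 1.28 (0.93 to 1.63), all of them transcription factors. The list's median was 36.3 per 10000 in Ctrl and 56.1 in Fgfr2 KO, and 29.5% and 62.5% of cells held 50 or more. The list was also higher in the other cells of Fgfr2 KO, by 0.55 (0.52 to 0.59). The heat shock genes Hspa1a and Hspa1b, which encode HSP70, had log2 ratios of 2.40 (1.77 to 3.05) and 2.92 (1.96 to 3.94) in these cells and of 2.02 and 1.95 in the other cells.

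Cell cycle genes marked few immune cells. The list reached 10 per 10000 in 10 of the 80 from Ctrl (12.5%, 6.16 to 21.8%) and 4 of the 41 from Fgfr2 KO (9.76%, 2.72 to 23.1%), with overlapping intervals. Mki67, a gene of dividing cells, had UMIs in 12 Ctrl and 3 Fgfr2 KO immune cells, and in 6.25% and 6.9% after thinning, against 4.26% and 6.98% of the other cells. The summed list differed by 0.10 (-0.10 to 0.30), and among the 32 remaining Fgfr2 KO cells 70% of its UMIs came from 1 cell. A difference in the share of cycling immune cells was not detectable at this depth.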

How the data were processed

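Single cells of 1 Ctrl and 1 Fgfr2 KO library were profiled. The authors deposited whole-number UMI counts per gene and cell in 1 table, aligned to mm10 with Cell Ranger 2.1.1 per the submitters' processing notes. The table held 28000 rows, 27998 genes and the 2 reporters GFP and Tdtomato. Whether the libraries were thinned to equal reads when joined is not given in the sources used here. Groups came from the labels and cells from the library prefix of their barcodes.

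UMIs were summed per library over the immune cells and divided by all their UMIs (CPM). Sums carry exact Poisson intervals, ratios exact conditional binomial intervals and shares exact Clopper-Pearson intervals, all at 95%. A share of 0 carries the limit of 3 counts of the total in place of an interval. With 1 library per group no p-value was computed, and a gene was counted at 2-fold or more. Genes needed 20 UMIs over both libraries. Genes were named by the interval of their ratio farthest from no change, 10 per direction, with UMIs in at least 3 cells and at most 50% of them from 1 cell. This rule was repeated outside the dendritic group after values had been seen, as were the limits of 10 and 50 list UMIs per 10000. The members and the gene lists were chosen with earlier results of these data known. A cell leaned to a side when it held at least 3 score UMIs. Doublets were kept: Scrublet, run through scanpy, called 3 of 268 Ctrl and 2 of 86 Fgfr2 KO cells, of which 1 and 1 were immune. The step that gives the ratio intervals was tested on simulated Poisson counts, which hold no differences between cells. Gene positions were taken from GENCODE M21 (GRCm38), which held 95.2% of the symbols. Python 3.11.15, numpy 2.4.6, pandas 2.3.3, scipy 1.17.1, scanpy 1.11.5 and matplotlib 3.10.9 were used. Alternatives changed the rule, its threshold, the cells left out, the UMI minimum and the scaling. Some genes of the lists are not reported here.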

Additional observations from a re-analysis of the deposited data

Results flagged for a closer look

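Summed gene lists differed between the libraries in one direction in immune cells and in the opposite direction in the other cells of the same libraries, and with 1 library per group these differences were not tested. The macrophage list was at a log2 ratio of 0.593, Fgfr2 KO over Ctrl, in immune cells and at -0.40 in the other cells. The dendritic list was at 3.48 against -0.59, and the fibroblast list at 0.6 against -2.24. Without the 5 Fgfr2 KO cells chosen by the dendritic list and the lymphoid-leaning cells, that list was at 0.36 (-0.24 to 0.94). The fibroblast value rested on 2 Fgfr2 KO cells, and without them it was at -1.03, the same direction as in the other cells. The macrophage value was 0.33 as a mean of per-cell CPM. MHC class II was at 1.53 against -0.33, MHC class I at 0.339 against -0.58 and the chemokine list at 0.106 against -0.99.

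Reporter transcripts of the donor cells were found in immune cells. GFP was at 4.97 CPM in the immune cells of Ctrl and at 16.6 CPM in those of Fgfr2 KO, and Tdtomato at 20.9 CPM in Ctrl immune cells. The GFP values were below those of the other cells of the same library. The Tdtomato value was lower too, with overlapping intervals of CPM but separate intervals of the share of cells with a UMI. The source of these UMIs was not tested.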

How the results depend on the processing

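With 1 library per group every ratio rests on 1 sample a side, and the shallower Fgfr2 KO library limits genes of few UMIs. No paired analysis was possible because each group has 1 library. Of 891 alternative values, 679 stayed within the counting interval of the main value, 198 moved by more and 14 reversed, and the cause was not tested. Counts of genes past 2-fold have no such interval, and a fixed fold limit was used for them. Leaving out cells high for the NK, B or dendritic list, alone or also without cells over 25% mitochondrial, was chosen after seeing the data, as was leaving out the cells that held most of the Ccl5, effector or fibroblast UMIs or the gene with most UMIs of a list. In the order of the first 2 settings, the log2 ratio was -0.46 and -0.444 for the lysosomal list, 1.2 and 1.19 for complement, -0.958 and -0.89 for the wound list, -0.51 and -0.417 for the NK list, -1.11 and -1.21 for cytotoxic effectors and -0.247 and -0.154 for Tmem123, the last 3 reversed (effectors were at -0.09 without 1 more Ctrl cell, which held 51.5% of their Ctrl UMIs), and with the second setting MHC class II was at 1.61. With at least 1 Ptprc UMI in place of the rule, the immune share was 27.2% in Ctrl and 26.7% in Fgfr2 KO. The higher share in Fgfr2 KO was then gone, but a Ptprc UMI is missed more often in shallow cells. With this setting the lysosomal list was at -0.664, complement at 1.18, MHC class II at 1.8 and the wound list at -1.73. The epithelial list (0.548), fibroblasts (-0.666), chemokines (-0.0867), growth factors (0.44) and Sdc1 (0.808) reversed. With the rule and Ptprc together the shares were 24.3% in Ctrl and 25.6% in Fgfr2 KO, and the lysosomal, complement, class II and wound lists were at -0.63, 1.23, 1.89 and -1.63. A threshold of 10 gave -0.643, 0.989 and 1.63 for the lysosomal, complement and class II lists, and a threshold of 3 gave -0.69 for the lysosomal list. The lysosomal list was at -0.8 without Scrublet calls, -0.806 without cells holding keratin UMIs and -0.689 when scaled without mitochondrial and ribosomal protein genes. As a mean of per-cell CPM the lysosomal, complement, class II and wound lists were at -0.823, 0.47, 1.38 and -1.03, and the NK list reversed to -0.481. Without the cell with most UMIs of the list in each library complement was at 0.464, class II at 1.29 and the NK list at -4.69. In all myeloid-leaning cells the lysosomal list was at -0.584, complement at 1.05, the wound list at -1.1 and the NK list at -0.657. Genes at least 2-fold higher and lower were 125 and 214 with a minimum of 50 UMIs and 837 and 868 with 10. None of the 14 alternatives reversed the complement, MHC class II, lysosomal or wound list, but without Spp1 the wound list was at -0.06 in the 78 and 32 remaining cells.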
